A study of Homo sapiens with 6 samples.

Results

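The 9 genes described here are histone genes whose RNA can be made outside DNA replication or can carry a poly(A) tail. They were taken by symbol from a table of 28395 genes, and all 9 were found. H2AFZ and H2AFX code for H2A variants tied to dividing cells. H2AFJ and H3F3B code for replacement histones that non-dividing cells go on making. HIST1H1C, HIST1H2BK, HIST1H2BD, HIST1H2AC and HIST2H2BE lie in the histone gene clusters, where most genes are switched on for S phase. They are among the cluster genes whose RNA is also known in a polyadenylated form.

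HCC827, an established cell line from a human lung adenocarcinoma, has an EGFR gene with an activating deletion, and erlotinib is an inhibitor of the EGFR kinase. The cells were given DMSO, the vehicle, or 1 μM erlotinib for 24 h, and RNA captured on oligo(dT) beads was sequenced in 3 libraries per treatment. The erlotinib columns of the table are numbered 4, 5 and 6, and those numbers are used here as names. The study's methods say in general that experiments were repeated independently, but do not tie these libraries to separate cultures, so p-values measure the spread between these libraries, which may be technical.

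The deposited values are reads divided by 1 size factor per library and are given here as signal. The size factors were worked out from the values themselves, and whole reads were recovered with them. The totals of these reads on genes were 20858083, 24641819 and 21172884 in the DMSO libraries and 21944007, 20760204 and 21678395 in the erlotinib libraries. Changes are log2 fold changes of erlotinib over DMSO on log2(signal + 1), with the standard error (SE). They were tested two-sided with limma in the 14215 genes whose mean signal reached 10, with Benjamini-Hochberg adjustment over all of these and a threshold of 0.05. DMSO library 2 stood apart from the other DMSO libraries. Its chi-square per degree of freedom was 22.87 against DMSO library 1 and 14.4 against DMSO library 3, where DMSO libraries 1 and 3 gave 7.612 and the erlotinib pairs 4.051 to 5.869.

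The epithelial identity of the cells was visible in every library. EGFR had a signal of 79645 ± 2441 (SD, n = 3) in DMSO and 45538 ± 3759 in erlotinib, and EPCAM, an epithelial adhesion protein, 9852 ± 235 and 9485 ± 281. Of 6 epithelial markers 4 fell with erlotinib (66.7%), against 35.4% of all tested genes, and 2 did neither. KRT18 fell most of these, from 18755 ± 1731 to 7876 ± 337 (log2 fold change -1.25). NKX2-1, the lineage factor of lung adenocarcinoma, went from 3002 ± 209 to 8644 ± 408. Some markers of other cell types were near 0 and others were not. Mean signals over the 6 libraries were 3.27 for PTPRC and 1.67 for CD3E (leukocytes) and 6.93 for CDH5 (endothelium). They were 147 for COL1A1 (fibroblasts) and 3146 for CD68 (leukocytes). The summed signal of 3 fibroblast markers was 71.5, 71.5 and 97.4 in DMSO and 246, 213 and 190.0 in erlotinib, nearly all of it COL1A1, and the other 2 had at most 3 reads in every library. That of 3 endothelial markers was 34.0, 15.8 and 20.3 in DMSO and 58.1, 42.6 and 43.1 in erlotinib, with VWF, at 3.94 ± 3.32 and 27.4 ± 6.93, the one that rose, tested only through its erlotinib signal. CD68, a lysosomal protein used as a macrophage marker, stood at 2898 ± 206 and 3394 ± 167. The part of these markers in the results was not tested.

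Histones package DNA, and a cell that replicates its genome needs a new supply of them. Replication-dependent histone RNAs are made in S phase and end in a short stem-loop that the stem-loop binding protein SLBP holds in place of a poly(A) tail. Variant histones are made through the cell cycle from genes whose RNA has a tail, and chaperones place them apart from replication. H2A.Z marks promoters and enhancers, H2A.X is phosphorylated at DNA breaks, and H3.3 fills in at transcribed genes.

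The stem-loop was looked for in the 150 bases after the stop codon, by the consensus of the histone stem-loop, which has a loop of 4 bases between arms of 6 bases. The arms paired at all 6 bases in 69 of the 71 genes found, and at 5 bases in the other 2, HIST1H2AG and HIST1H2AK. The stem-loop was present in 6 of the 9 genes, in 65 of 65 other cluster histone genes with a stop codon in the annotation, and in 0 of 14 other variant histone genes. These 6 copies are shown because they divide the genes by whether they hold the signal for that kind of RNA end. They are written 5′ to 3′ from GRCh38, with the loop in capitals.

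HIST1H1C, chr6:26055744-26055759, minus strand: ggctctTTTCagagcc
HIST1H2AC, chr6:26124669-26124684, plus strand: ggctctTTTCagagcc
HIST2H2BE, chr1:149886188-149886203, minus strand: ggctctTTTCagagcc
HIST1H2BD, chr6:26158587-26158602, plus strand: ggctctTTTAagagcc
HIST1H2BK, chr6:27146366-27146381, minus strand: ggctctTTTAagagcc
H2AFX, chr11:119094898-119094913, minus strand: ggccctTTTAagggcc

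All 5 cluster genes held the stem-loop, and so did H2AFX, alone among the 4 variant genes. Of the 71 genes with the element, 69 had a canonical GENCODE transcript that ended within 20 bases past it. The others were HIST2H2BE, whose transcript ran 1729 bases further, and H2AFX, whose transcript ran 1024 bases further. The longest transcript of HIST1H2AC, 1668 bases, also extended beyond its canonical transcript of 519 bases. For HIST1H2BD these lengths were 789 and 486 bases.

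The promoters of all 9 genes were found in the RefSeq table of GRCh38.p14. Motifs were searched on both strands from 250 bases before to 50 bases after the start. They were the CCAAT box (CCAAT), the TATA box (TATAAA), the core of the octamer of histone H2B promoters (TTTGCAT), the cell cycle homology region (TTTGAA) and the core of an E2F site (GGCGGGA). The 150 bases before the start are shown for both proliferation-linked variants, for the cluster genes with divergent neighbours that could be tested and for H3F3B, the replacement gene that fell. Capitals mark the motifs, which do not overlap one another in these stretches.

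H2AFZ, chr4:99950276-99950425, minus strand: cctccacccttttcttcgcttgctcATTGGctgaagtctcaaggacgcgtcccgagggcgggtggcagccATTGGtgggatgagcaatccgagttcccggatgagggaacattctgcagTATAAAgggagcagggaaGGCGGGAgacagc
H2AFX, chr11:119095466-119095615, minus strand: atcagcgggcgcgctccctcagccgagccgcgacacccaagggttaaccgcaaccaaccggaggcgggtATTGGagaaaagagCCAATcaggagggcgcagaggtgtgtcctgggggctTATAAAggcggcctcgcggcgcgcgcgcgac
HIST1H2AC, chr6:26124022-26124171, plus strand: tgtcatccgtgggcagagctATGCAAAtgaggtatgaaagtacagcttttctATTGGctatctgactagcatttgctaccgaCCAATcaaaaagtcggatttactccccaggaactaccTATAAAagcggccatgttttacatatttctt
HIST2H2BE, chr1:149886683-149886832, minus strand: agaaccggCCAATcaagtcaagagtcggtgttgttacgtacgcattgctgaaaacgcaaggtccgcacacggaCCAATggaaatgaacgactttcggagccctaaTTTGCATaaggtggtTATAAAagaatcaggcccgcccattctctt
H3F3B, chr17:75779780-75779929, minus strand: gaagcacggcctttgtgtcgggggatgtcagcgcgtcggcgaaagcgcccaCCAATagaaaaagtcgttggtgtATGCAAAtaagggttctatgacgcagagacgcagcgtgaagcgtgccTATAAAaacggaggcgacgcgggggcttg

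A CCAAT box was present in 9 of 9 promoters, against 35.7% of all 27305 promoters of the same length. A TATA box was present in 7 of 9, against 11.95%, and the octamer core in 4 of 9, against 4.51%. The genes with the octamer core were HIST2H2BE, HIST1H2AC, HIST1H2BK and H3F3B. The cell cycle homology region was present in H2AFX, H2AFZ and HIST1H2BD, against 15.4% of all promoters, and the E2F core in H2AFZ and HIST1H2BD, against 15.5%. In 60 promoters of other cluster histone genes, the CCAAT box was present in 83.3%, the TATA box in 65% and the octamer core in 38.3%. The cell cycle homology region was present in 36.7% of them and the E2F core in 20%. Differences between the 9 and these were not tested. A match to these letters is a description and does not show a bound site.

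With erlotinib, 3 of the 9 genes fell and 6 rose. Among all tested genes 35.4% fell and 35.3% rose. Counts in every gene list below are to be read against these shares. The libraries of the groups did not overlap for any of the 9 genes, which was also so for 73.6% of all tested genes. The 2 proliferation-linked variants had the deepest falls of the 9. The 5 cluster genes rose by 2.00- to 6.39-fold. The 2 replacement genes changed least, with H2AFJ higher and H3F3B lower. In these bulk libraries, fewer cells of a type and less RNA per cell cannot be told apart.

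**Figure D1:**
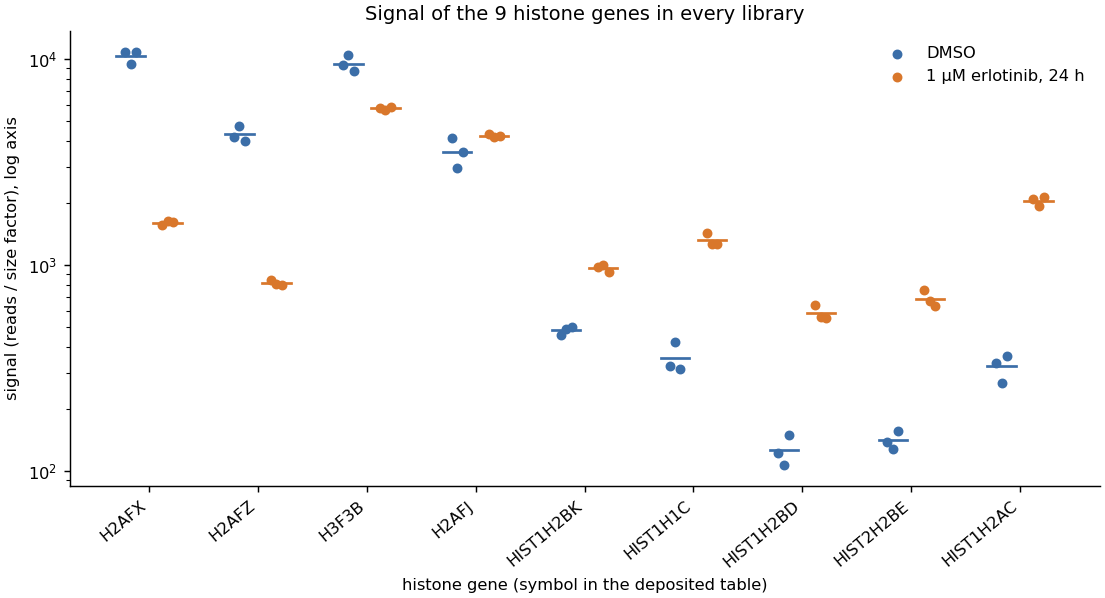
Signal of the 9 histone genes (reads divided by the size factor, log axis) in the 3 DMSO and 3 erlotinib libraries. Each point is 1 library and each line the group mean; H2AFX falls from a mean of 10344 to 1606 and HIST1H2AC rises from 322 to 2048, and no gene has overlapping groups.

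H2AFX (Entrez 3014, chr11:119093874-119095465, minus strand) codes for H2A.X, the H2A that the kinases of the DNA damage response phosphorylate. Its signal was 10808, 9431 and 10794 in the DMSO libraries and 1561, 1639 and 1618 in the erlotinib libraries. The erlotinib libraries lay close together and far below the lowest DMSO library. The means were 10344 ± 791 (SD, n = 3) and 1606 ± 40.2, a 6.43-fold fall (log2 fold change -2.68, SE 0.07, adjusted p = 1.5e-17, limma with Benjamini-Hochberg adjustment). H2AFX overlaps DPAGT1, an enzyme gene of N-glycosylation on the same strand, whose signal was 1097 ± 90.5 and 866 ± 38.0 (log2 fold change -0.34). Reads in the overlap could not be assigned with certainty to either gene.

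H2AFZ (Entrez 3015, chr4:99948088-99950275, minus strand) codes for H2A.Z, the variant that replaces H2A at the start sites of genes. Its signal was 4183, 4730 and 4003 in DMSO and 847, 804 and 801 in erlotinib, and the highest erlotinib library was far below the lowest DMSO library. The means were 4305 ± 379 and 817 ± 25.8, a 5.25-fold fall (log2 fold change -2.39, SE 0.08, adjusted p = 3.7e-16, limma with Benjamini-Hochberg adjustment). H2AFV codes for the second H2A.Z of human cells and differs from it by few residues. It fell from 4565 ± 401 to 2704 ± 82.8 (log2 fold change -0.75, SE 0.07, adjusted p = 9.6e-09, limma). The 95% interval was -0.90 to -0.60 for H2AFV and -2.56 to -2.23 for H2AFZ, so that these did not overlap. Per kilobase of exon, the log2 ratio of H2AFV to H2AFZ was -1.48, -1.56 and -1.58 in the DMSO libraries and 0.02, 0.18 and 0.11 in the erlotinib libraries. With the longest transcripts the mean log2 ratio was -0.93 in DMSO and 0.71 in erlotinib, and with the canonical transcripts -1.72 and -0.08. H2AFV was thus the lower of the pair in DMSO with each length, and its order in erlotinib depended on the length.

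H2AFJ (Entrez 55766, chr12:14774405-14778002, plus strand) codes for H2A.J, a variant known to build up in senescent cells. Its signal was 4126, 2941 and 3551 in DMSO and 4295, 4194 and 4210 in erlotinib. The DMSO libraries were spread widely, and the highest of them lay just under the lowest erlotinib library. The means were 3539 ± 592 and 4233 ± 54.4 (log2 fold change 0.27, SE 0.09, adjusted p = 0.0102, limma with Benjamini-Hochberg adjustment), the smallest change of the 9. Without DMSO library 2, the lowest of the group, the log2 fold change was 0.145 (adjusted p = 0.0359, limma). Scaling by total counts gave 0.45. Without DMSO library 2, all 9 genes kept their calls, and the largest shift among them was 0.137 on the log2 scale, for HIST1H1C.

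H3F3B (Entrez 3021, chr17:75776434-75779779, minus strand) codes for H3.3, the H3 of transcribed chromatin. Its signal was 9295, 10385 and 8713 in DMSO and 5803, 5654 and 5853 in erlotinib, with all erlotinib libraries below the DMSO libraries. The means were 9464 ± 848 and 5770 ± 104 (log2 fold change -0.71, SE 0.07, adjusted p = 9.7e-09, limma with Benjamini-Hochberg adjustment). H3F3C, an intronless gene whose sequence resembles the RNA of H3F3B, stood at 9503 ± 453 and 6415 ± 183 (log2 fold change -0.57). The transcripts of both aligned over 1121 bases at 95.7% identity with 36 mismatched bases, so that reads could be split between them, and the level of each is uncertain. H3F3A, which codes for the same protein, went the other way, from 194 ± 4.37 to 304 ± 19.4 (log2 fold change 0.65, SE 0.13, adjusted p = 0.00022, limma). Of the H3F3A transcript, 97.6% had copies elsewhere in the genome at an identity of at least 97%. H3F3AP4, one of these, stood at 2375 ± 114 and 3587 ± 217, so that the level of H3F3A is also uncertain. H3F3B and H2AFZ have introns, and the aligner used does not split reads across introns.

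HIST1H2AC (Entrez 8334, chr6:26124172-26124690, plus strand), a gene for canonical H2A, rose most of the 9. Its signal was 335, 268 and 362 in DMSO and 2078, 1926 and 2138 in erlotinib, so that every erlotinib library was far above the DMSO libraries. The means were 322 ± 48.0 and 2048 ± 109, a 6.39-fold rise (log2 fold change 2.68, SE 0.11, adjusted p = 6.4e-15, limma with Benjamini-Hochberg adjustment).

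HIST2H2BE (Entrez 8349, chr1:149884459-149886682, minus strand), a gene for H2B in the cluster of chromosome 1, stood at 138, 127 and 156 in DMSO and at 755, 665 and 629 in erlotinib. The groups were far apart, with means of 141 ± 14.6 and 683 ± 64.8, a 4.83-fold rise (log2 fold change 2.27, SE 0.13, adjusted p = 2.4e-12, limma with Benjamini-Hochberg adjustment). HIST1H2BD (Entrez 3017, chr6:26158121-26171349, plus strand), a second gene for H2B, stood at 123, 107 and 149.8 in DMSO and at 641, 558 and 549 in erlotinib. Its groups were also far apart, with means of 126 ± 21.8 and 583 ± 50.7, a 4.62-fold rise (log2 fold change 2.21, SE 0.14, adjusted p = 2.0e-11, limma). Its RefSeq span overlaps the antisense gene H2BC6-AS1 and the pseudogene LARP1P1, and reads from these could not be told apart from its own.

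HIST1H1C (Entrez 3006, chr6:26055740-26056470, minus strand), a gene for a linker histone, stood at 323, 423 and 313 in DMSO and at 1421, 1257 and 1267 in erlotinib. DMSO library 2 was the highest of its group and still far below the erlotinib libraries. The means were 353 ± 60.7 and 1315 ± 92.1, a 3.75-fold rise (log2 fold change 1.91, SE 0.11, adjusted p = 3.8e-12, limma with Benjamini-Hochberg adjustment).

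HIST1H2BK (Entrez 85236, chr6:27138293-27146858, minus strand), the third gene for H2B, had the smallest rise of the 5 cluster genes. It stood at 459, 491 and 499.8 in DMSO and at 982, 994 and 927 in erlotinib, with little spread in either group. The means were 484 ± 21.3 and 968 ± 35.8, a 2.00-fold rise (log2 fold change 1.00, SE 0.09, adjusted p = 5.4e-09, limma with Benjamini-Hochberg adjustment). Of its canonical transcript, 90.3% had copies on chromosome 21 at an identity of at least 97%. The value of HIST1H2BK is therefore uncertain. One copy, LOC102724334, was listed at 0 in every library, but only unique alignments were counted, so that this 0 does not show whether reads were shared. The other copy, H2BC12L, was not analysed here. HIST1H4I, a gene for H4 on the other strand, lies within its RefSeq span, with a signal of 8.65 in DMSO and 12.4 in erlotinib.

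**Figure D2:**
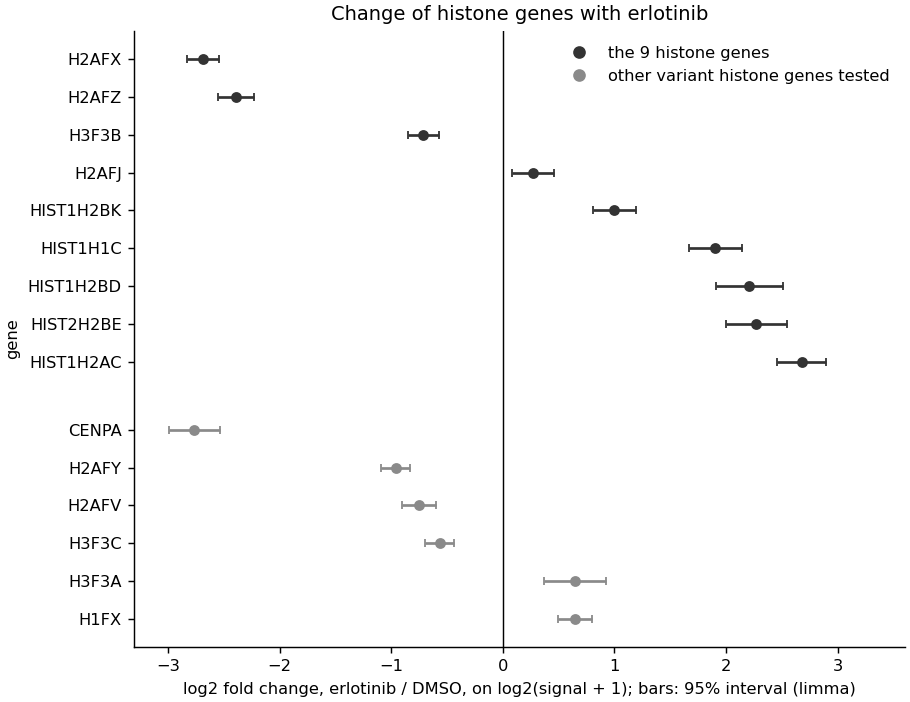
Log2 fold change of erlotinib over DMSO on log2(signal + 1) for the 9 histone genes and, below them, the other variant histone genes tested; bars are 95% intervals from limma. H2AFX, H2AFZ and H3F3B lie below 0 and the 5 cluster genes at or above 1.00, and H2AFV, at -0.75, lies apart from H2AFZ, at -2.39.

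Summed over the 2 proliferation-linked variants, the signal was 14990, 14161 and 14797 in DMSO and 2409, 2443 and 2419 in erlotinib. Summed over the 5 cluster genes, it was 1378, 1416 and 1480 in DMSO and 5877, 5401 and 5510 in erlotinib. The first sum was lower and the second higher in every erlotinib library than in any DMSO library.

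Ratios within a library do not depend on its scaling. The log2 ratio of H2AFJ to H2AFZ per kilobase of exon was -0.57, -1.24 and -0.73 in DMSO and 1.79, 1.83 and 1.84 in erlotinib. The log2 ratio of H2AFJ to H2AFX was -2.46, -2.75 and -2.67 in DMSO and 0.39, 0.29 and 0.31 in erlotinib. Both ratios were higher in every erlotinib library than in any DMSO library. The sign of the mean ratio in each group held with all 3 lengths for H2AFJ to H2AFX, and in erlotinib for H2AFJ to H2AFZ. In DMSO the sign for H2AFJ to H2AFZ depended on the length, and with canonical transcripts the log2 ratio was 0.46, -0.20 and 0.31. The difference between the groups, 2.67 for H2AFJ to H2AFZ and 2.96 for H2AFJ to H2AFX, does not depend on the length. The mean log2 ratio moved from -2.08 ± 0.24 to -0.10 ± 0.055 for H3F3B to H2AFX and from -0.30 ± 0.015 to 1.39 ± 0.05 for H3F3B to H2AFZ. With the longest transcripts the mean log2 ratio of H3F3B to H2AFZ in DMSO was 0.57, and that of H3F3B to H2AFX in erlotinib was 1.04, so that these signs turned. H3F3B fell, but by less than H2AFZ and H2AFX in these libraries.

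Levels of different genes were compared per kilobase of exon, over the union of the exons of GENCODE 44. In DMSO the order was H2AFX (signal per kilobase 6498 ± 497), H2AFZ (1897 ± 167), H3F3B (1543 ± 138), H2AFJ (1062 ± 178) and HIST1H2BK (977 ± 43.0). Below them came HIST1H1C (483 ± 83.0), HIST1H2AC (193 ± 28.8), HIST1H2BD (147 ± 25.3) and HIST2H2BE (63.2 ± 6.6). Neighbours whose means differed by less than the sum of their SDs were H2AFJ and HIST1H2BK, and HIST1H2AC and HIST1H2BD.

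In erlotinib HIST1H2BK was first, at a signal per kilobase of 1955 ± 72.4. It was followed by HIST1H1C (1799 ± 126), H2AFJ (1270 ± 16.3), HIST1H2AC (1228 ± 65.4), H2AFX (1009 ± 25.3) and H3F3B (941 ± 16.9). HIST1H2BD (677 ± 58.9), H2AFZ (360 ± 11.4) and HIST2H2BE (307 ± 29.1) came last. HIST1H2BK and HIST1H1C, and H2AFJ and HIST1H2AC, differed by less than the sum of their SDs. The order rests on the length taken. With the longest transcript in place of all exons, H3F3B was first in erlotinib, at 2070 ± 37.2, above HIST1H2BK by more than the sum of their SDs. With the canonical transcript, H2AFJ stood at 5709 in DMSO and 6827 in erlotinib, and HIST1H2AC at 620 and 3945. H2AFJ was then first in erlotinib. H2AFX was first in DMSO and HIST2H2BE last in both groups with each of these lengths. With the canonical transcript, however, H2AFX (6498 ± 497) and H2AFJ (5709 ± 955.5) in DMSO differed by less than the sum of their SDs. The RefSeq gene of HIST1H2BK spans 8566 bases, against 495 bases of exon used here, and that of HIST1H2BD 13229 bases, against 861. The annotation the reads were counted over is not given in the sources used here, so that reads may have been counted over exons other than those used as lengths, and levels per kilobase are uncertain.

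Of 14 other variant histone genes, 6 were tested, 4 fell and 2 rose, and 7 had at most 3 reads in every library. CENPA, the H3 of centromeres, had the deepest fall, from 1552 ± 170 to 227 ± 22.1 (log2 fold change -2.76, SE 0.11, adjusted p = 6.7e-15, limma with Benjamini-Hochberg adjustment). H2AFY, which codes for macroH2A of silent chromatin, fell from 6503 ± 244 to 3341 ± 83.0 (log2 fold change -0.96). H3F3C had the highest mean signal of this list, and the genes that rose were H3F3A and H1FX. H1FX, a linker histone gene outside the clusters, went from 5936 ± 680 to 9246 ± 126 (log2 fold change 0.65, SE 0.07, adjusted p = 1.3e-07, limma).

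The other cluster histone genes numbered 68. Of these 34 were tested, 6 fell, 14 rose and 14 did neither. Their median log2 fold change was 0.74, against 0.02 over all tested genes. Another 17 had at most 3 reads in every library. With at least 10 reads required in every library, 3 fell and 9 rose, and without erlotinib library 5, 3 fell. Their summed signal was 1545, 1332 and 1447 in DMSO and 2615, 2371 and 2452 in erlotinib. The groups of libraries did not overlap in this sum. HIST3H2A, with the highest signal of the 68, rose from 281 ± 57.5 to 815 ± 15.8 (log2 fold change 1.55). HIST1H4K, a gene for H4, went from 4.82 ± 1.39 to 44.4 ± 12.9 (log2 fold change 2.96) and HIST1H2BG, a gene for H2B, from 33.8 ± 18.9 to 163 ± 26.5 (log2 fold change 2.42). HIST1H2BL, a gene for H2B, went from 21.5 ± 10.0 to 4.11 ± 0.45 (log2 fold change -2.05) and HIST1H1B, for a linker histone, from 21.7 ± 3.96 to 7.47 ± 4.83 (log2 fold change -1.64). The signal of HIST1H4K in DMSO and that of HIST1H2BL and HIST1H1B in erlotinib was under 10, so that each was tested only through the group where it was high. This held for 3 of the 6 genes that fell and 1 of the 14 that rose. Of the 34 tested, 41.2% rose and 17.6% fell, against 35.3% and 35.4% of all tested genes. By kind, 5 of 8 tested H2A genes rose and 2 fell, and 4 of 11 H2B genes rose and 2 fell. For H3, 3 of 6 rose and 1 fell, and for H4, 2 of 6 rose and 0 fell. No difference between kinds was tested. Of 3 tested linker histone genes in the clusters, 1 fell and 2 did neither.

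Since most cluster histone RNA has no poly(A) tail, 12 other RNAs without a tail were set beside these values. Of these, 6 were tested, 1 rose and 5 did neither, and the other 6 had at most 3 reads in every library. Their summed signal was 12212, 6932 and 11435 in DMSO and 8714, 10132 and 7593 in erlotinib, so that the groups overlapped. RN7SL2, part of the signal recognition particle, with the highest signal of the list, had a log2 fold change of -0.25 (SE 0.14, adjusted p = 0.13, limma). RN7SK, which holds back an elongation factor of transcription, rose from 145 ± 10.9 to 275 ± 25.5 (log2 fold change 0.92, SE 0.15, adjusted p = 1.3e-05, limma). Without DMSO library 2, the lowest in this sum, 2 of these RNAs fell, and without erlotinib library 5, 1 fell. The part of RNA without a tail in the change of the cluster genes was not tested.

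Histone genes of the clusters often start back to back, mostly an H2A gene beside an H2B gene. The pair HIST2H2BE and HIST2H2AC starts 236 bases apart, and most of the bases between the starts are those printed above for HIST2H2BE. HIST2H2AC, a gene for H2A, stood at 157, 115 and 98.5 in DMSO and at 37.8, 33.7 and 44.9 in erlotinib. It fell (log2 fold change -1.63, SE 0.25, adjusted p = 6.3e-06, limma with Benjamini-Hochberg adjustment) while HIST2H2BE rose by 2.27 on the log2 scale. The pair HIST1H2AC and HIST1H2BC starts 246 bases apart, and both rose. HIST1H2BC, a gene for H2B, stood at 89.6, 52.0 and 69.6 in DMSO and at 174, 150 and 123 in erlotinib (log2 fold change 1.09, SE 0.22, adjusted p = 0.0002, limma). The partner of HIST1H2BK, HIST1H2AH, starts 251 bases away and was too low to test, at 6.40 ± 4.34 and 5.01 ± 3.86.

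**Figure D3:**
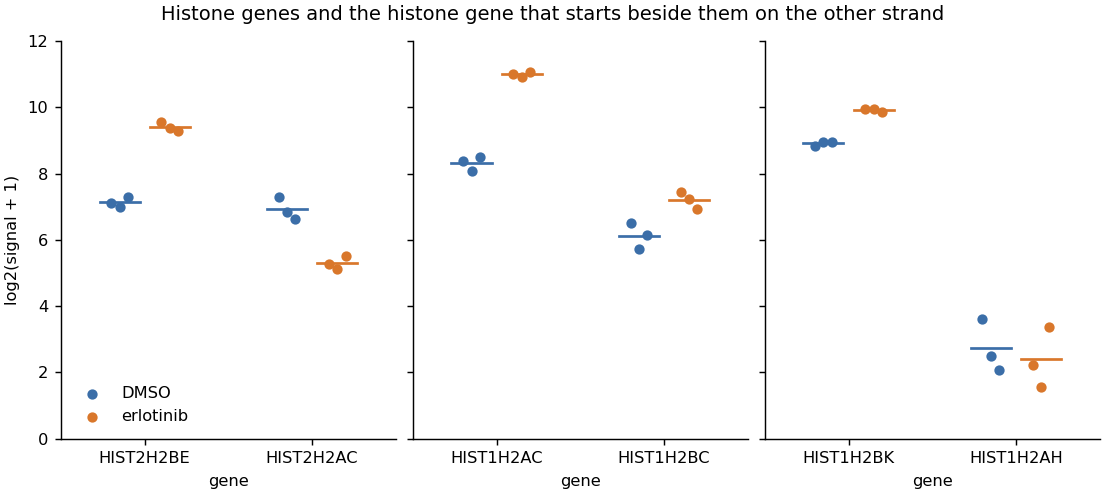
Level on log2(signal + 1) of 3 cluster genes and of the histone gene that starts beside each on the other strand; points are libraries and lines group means, blue for DMSO and orange for erlotinib. HIST2H2BE rises by 2.27 where HIST2H2AC falls (-1.63), HIST1H2AC and HIST1H2BC both rise, and HIST1H2AH lies near the floor in both groups.

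Of 14 pairs of cluster histone genes that start on opposite strands within 1000 bases, 8 had both genes tested and 4 had both genes past the threshold. Both genes rose in 2 of these, and the genes moved in opposite directions in the other 2. HIST1H2BL and HIST1H2AI, at -2.05 and 1.91, were the second opposite pair. These 2 genes had as few as 4 and 8 reads in a library, and HIST1H2BL was tested only through its DMSO signal, so that the second pair rests on low counts. HIST2H2BE and HIST2H2AC had at least 34 reads in every library.

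The genes that make the ends of replication-dependent histone RNA and switch on the clusters were listed from general knowledge. All 18 were tested and 18 fell, with a median log2 fold change of -0.84. SLBP, which binds the stem-loops printed above, stood at 3492, 3910 and 3326 in DMSO and at 1072, 1022 and 1164 in erlotinib. It fell from 3576 ± 301 to 1086 ± 72.4 (log2 fold change -1.72, SE 0.08, adjusted p = 8.7e-14, limma with Benjamini-Hochberg adjustment). The deepest falls were those of CCNE2, a cyclin of S phase entry (log2 fold change -3.16), and of LSM10, a subunit of the U7 particle that cuts histone RNA (-1.87). CDK2, the kinase partner of cyclin E, changed by -1.82, NPAT, its substrate at the histone clusters, by -0.58, and CPSF2, a subunit of the cleavage complex, with the highest signal of the list, by -0.78. After scaling by total counts 16 of the 18 fell, and without erlotinib library 4, 17 fell.

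Of 12 genes for chaperones of newly made histones, 10 fell and 2 did neither, and the list had a median log2 fold change of -1.74. ASF1B, which passes H3 and H4 on during replication, fell from 2175 ± 94.5 to 227 ± 49.7 (log2 fold change -3.28). HJURP, the chaperone of CENPA, fell from 3127 ± 185 to 378 ± 44.1 (-3.05), and MCM2, the replication helicase subunit that binds H3 and H4, with the highest signal of the list, from 6187 ± 280 to 1090 ± 37.1 (-2.50). Without DMSO library 2, 1 of these 12 genes rose.

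The H3.3 chaperones changed in shares near those of all tested genes, 28.6% lower and 28.6% higher against 35.4% and 35.3%. Of 7 tested, 2 fell, 2 rose and 3 did neither, and without DMSO library 3, 1 rose. DEK, with the highest signal, fell from 6711 ± 818 to 2502 ± 134 (log2 fold change -1.42), and HIRA, which places H3.3 at active genes, from 1037 ± 66.4 to 643 ± 71.2 (-0.69). UBN2, a partner of HIRA, rose from 954 ± 116 to 2068 ± 173 (1.12), and ATRX, which places H3.3 at repeats, from 3492 ± 429 to 4135 ± 153 (0.25).

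Of 13 genes that place or remove H2A.Z, 8 fell, 1 rose and 4 did neither, and the median log2 fold change was -0.39. ANP32E, which takes H2A.Z off chromatin, with the highest signal of the list, fell from 6100 ± 329 to 1948 ± 287 (log2 fold change -1.66). RUVBL1, an ATPase shared by the exchange complexes, fell from 2936 ± 78.2 to 1279 ± 59.8 (-1.20). DMAP1, a subunit of the same complexes, rose from 596 ± 70.1 to 831 ± 47.6 (0.48). After scaling by total counts, 4 of the 13 rose.

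Of 12 genes that write, read or erase the phosphate on H2A.X, 11 were tested, 8 fell and 2 rose, with a median log2 fold change of -0.69. PRKDC, a kinase of H2A.X, fell from 6742 ± 620 to 2000 ± 267 (log2 fold change -1.76), ATR, another such kinase, from 1504 ± 179 to 763 ± 62.5 (-0.98), and BAZ1B, with the highest signal, from 7227 ± 318 to 4471 ± 154 (-0.69). EYA1, a phosphatase, rose from 77.1 ± 16.1 to 234 ± 8.99 (1.61), and TP53BP1, a repair protein drawn to breaks, from 1877 ± 93.2 to 2142 ± 93.7 (0.19). Without DMSO library 3, erlotinib library 4 or erlotinib library 6, 1 rose. MDC1, the reader of phosphorylated H2A.X, was listed at 0 in all 6 libraries. Only unique alignments were counted, so that this 0 does not show that its RNA was absent.

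**Figure D4:**
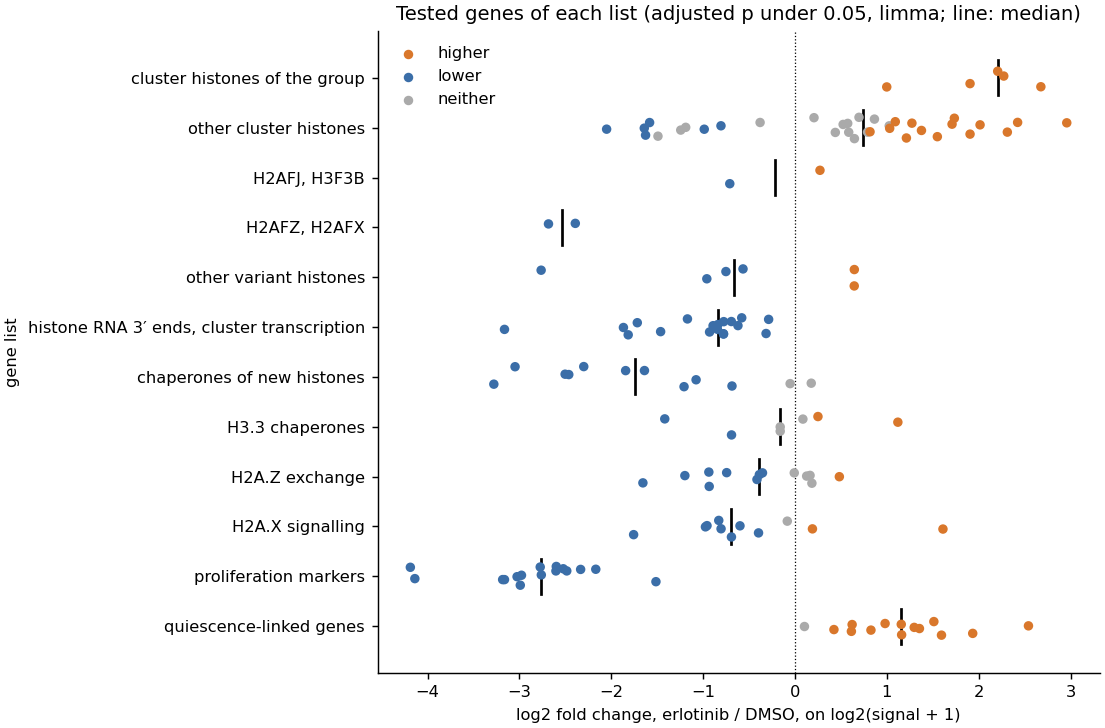
Log2 fold change of erlotinib over DMSO on log2(signal + 1) for each tested gene of 12 lists; orange, blue and grey mark genes higher, lower and neither at an adjusted p under 0.05 (limma), and the black line is the list's median. The 18 genes for histone RNA ends and the 16 proliferation markers lie below 0, the 5 cluster histones of the group above it.

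Markers of proliferation and of quiescence were measured in the same libraries. All 16 proliferation markers fell, with a median log2 fold change of -2.77. CCNE2 is counted both here and among the genes for histone RNA ends, so that these lists are not fully separate. CDC6, which loads the replication helicase, fell from 3085 ± 192 to 169 ± 16.8 (-4.19), RRM2, which makes the building blocks of DNA, from 8329 ± 784 to 472 ± 40.7 (-4.14), and TOP2A, with the highest signal, from 15877 ± 1752 to 2754 ± 147 (-2.52). Of 14 tested genes linked to quiescence, 13 rose and 1 did neither, and the list had a median log2 fold change of 1.16. MXD4, an antagonist of MYC, rose from 780 ± 141 to 4495 ± 53.6 (2.54), HBP1, a repressor of cell cycle genes, from 428 ± 27.2 to 1639 ± 51.0 (1.94), and TXNIP, with the highest signal, from 3545 ± 370 to 10678 ± 461 (log2 fold change 1.595). On the same scale, H2AFX (-2.68) and H2AFZ (-2.39) fell by less than the median of the proliferation markers, within their range of -4.19 (CDC6) to -1.51 (MCM7). H2AFJ (0.27) lay below the median of the genes linked to quiescence, and 4 of the 5 cluster genes lay above it.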

How the data were processed

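RNA-seq libraries of HCC827 cells, 3 treated with DMSO and 3 with 1 μM erlotinib, were analysed. Per the labels and methods, the authors aligned the read pairs with Bowtie2 2.3.4 to GRCh38, and featureCounts 1.6.3 gave the reads of each gene from unique alignments. The submitters' processing notes also name DESeq2 1.18.1. The deposited signal values are these counts divided by 1 size factor per library (0.882 to 1.08), and 100% of the values came out as whole reads within a tolerance of 0.001. The strand counted is not given in the sources used here. limma 3.58.1 with a variance trend was run on log2(signal + 1) for genes whose mean signal reached 10. Tested on data simulated for this comparison, over 13657 genes, limma recovered 89 of 98 tested genes changed 2-fold and 99 of 99 changed 4-fold. Of 200 genes changed in the simulation 197 were tested, and limma made 5 false calls. The simulation took an assumed spread between replicates and had no library that stood apart as DMSO library 2 did. It changed far fewer genes than were called in the data, where 35.4% fell and 35.3% rose. Its rates therefore need not hold for these libraries. Alternatives were DESeq2 1.42.0 and edgeR 4.0.16 on recovered reads, other scalings, filters, pseudocounts and thresholds, and each library left out in turn. Canonical transcript lengths, and ratios with other lengths, were added after seeing the data.

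The 9 genes and all gene lists were chosen with earlier results of these data known, so no list was tested as a set. From each list the text names the 2 largest falls and the 2 largest rises past the threshold, the gene with the highest mean signal, and paralogs or divergent neighbours of the 9. Of the group as first listed, 1 gene is not reported here. CDK2, SLBP, NPAT, HIST1H4I, MDC1, H3F3AP4, DPAGT1, the pair HIST1H2BL and HIST1H2AI and the cell type markers were chosen beside this rule, some after their values were seen. Symbols were matched to RefSeq (GRCh38.p14) and GENCODE 44, and copies of transcripts were searched with blastn 2.17.0 (at least 97% identity over at least 75 bases). Plots were drawn with matplotlib 3.10.9.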

Additional observations from a re-analysis of the deposited data

How the results depend on the processing

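Under 15 alternatives, 3 of the 9 genes fell in each, and 6 rose in each except at an adjusted p under 0.01, where 5 rose and H2AFJ (adjusted p = 0.0102, limma) did not pass. No gene reversed. On the recovered whole reads of all tested genes, DESeq2 gave 4934 falls and 4949 rises, and edgeR gave 4941 and 5085. Scaling to the total count moved the values most, since the median of all tested genes was then 0.20 on the log2 scale in place of 0.02, and 3955 genes fell and 6156 rose in place of 5031 and 5012. On that scale H3F3B stood at -0.53 and H2AFZ at -2.21. With 1 library left out, 3 genes fell and 6 rose each time, and the genes of the other lists that fell or rose numbered 66 to 73 and 30 to 43 over all alternatives.

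Signal per kilobase in DMSO depended on the length taken. With the longest transcript H2AFZ stood at 2289.9 and H3F3B at 3396. With the canonical transcript H2AFZ stood at 4971, H2AFJ at 5709, H3F3B at 3499, HIST1H2BD at 260.1 and HIST1H2AC at 619.7. Mean log2 ratios per kilobase within a library depended on it too, by lengths tried after seeing the data. With the longest transcripts, H3F3B to H2AFX stood at -0.94 in DMSO and 1.04 in erlotinib, H3F3B to H2AFZ at 0.57 and 2.25, H2AFV to H2AFZ at -0.93 and 0.71, and in erlotinib H2AFJ to H2AFZ at 1.65 and H2AFJ to H2AFX at 0.43. With canonical transcripts, H2AFJ to H2AFZ stood at 0.19 in DMSO and 2.85 in erlotinib, H2AFJ to H2AFX at -0.20 and 2.76, H3F3B to H2AFX at -0.89 and 1.08, H3F3B to H2AFZ at -0.51 and 1.177, and H2AFV to H2AFZ at -1.72 and -0.079. The sign differed from that per kilobase of exon for H2AFJ to H2AFZ in DMSO and H2AFV to H2AFZ in erlotinib (canonical), H3F3B to H2AFZ in DMSO (longest) and H3F3B to H2AFX in erlotinib (both). No paired analysis was possible because the erlotinib columns are numbered 4 to 6 and share no number with the DMSO columns. The lowest read count of the 9 genes in any library was 108. Of the 68 other cluster histone genes, 17 had at most 3 reads in every library, and the reason for their low counts was not tested.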
